A study of Mus musculus and Homo sapiens with 67 samples.

Results

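The genes described here are 50 genes of mitosis and the G2/M phase, named by symbol from textbook roles and found in each deposited expression table by matching the symbol without regard to case. All 50 were found among the 60564 genes of the tables for the human pancreatic cancer lines PSN1 and SW1990. In the tables for KPC cells, a mouse pancreatic cancer line, and for KPC orthotopic tumours, which grew in the pancreas of mice, 49 were found among 55335 genes, and KIF4A was not matched. Every matched gene reached the minimum level set for testing, 1 FPKM (fragments scaled by transcript length and library size) in at least 3 libraries of a cell table or 4 of the tumour table.

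The study treated each culture with tazemetostat, an inhibitor of the histone methyltransferase EZH2, with RMC-6236, which inhibits RAS proteins in their active state, with the combination of both, or with DMSO as the control. Mice bearing orthotopic tumours received tazemetostat, RMC-6236, the combination or vehicle. RNA was sequenced from 3 samples per arm of each culture and from 4 tumours per arm, 52 libraries in all. For these arms the labels give no dose, no length of treatment, no age or strain of the mice and no genotype for the KPC line, and they do not say whether cells and tumours came from the same KPC line or whether the samples of a culture were separate cultures, so p-values rest on a spread between samples that may be technical alone. Another 15 libraries, from subcutaneous tumours, were not analysed here.

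Entry into mitosis is driven by the kinase CDK1 bound to B-type cyclins, which CDC25 phosphatases switch on. Most of the genes that carry out division are transcribed late in the cell cycle, under MYBL2 and FOXM1 acting with the MuvB complex at cell cycle homology elements in their promoters. In cells that leave the cycle, the DREAM complex represses many of the same promoters. RAS signalling through ERK is a main drive into the cycle in pancreatic cancer cells, and the level of genes such as MKI67 and TOP2A is widely used as a gauge of how many cells of a sample divide.

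Promoters of the mouse genes were searched for the short motifs known for this timing. RefSeq promoter windows of the mouse build GRCm38.p6, each reaching 250 bases before and 50 bases after a gene's start, were held for 41 of the 49 genes (44 windows, since 3 genes had 2). The cell cycle homology motif TTTGAA, searched on both strands, lay in a window of 29 of these 41 genes, 70.7% (95% Wilson interval 55.5 to 82.4%), against 20.2% of all 27025 genes with a window. Its variant TTTAAA was present in 29.3% of the 41 genes against 14.9% of all genes, and CCAAT, the core of the NF-Y site, in 70.7% against 41.1%. A window with TTTGAA or TTTAAA was held by 33 of the 41 genes, 80.5% (66.0 to 89.8%), against 30.6% of all genes. The shares with TTTGAA depend on the 50 bases after the start. Over the 250 bases before it alone, TTTGAA was present in 34.1% of the 41 genes against 18.3% of all genes. TTTGAA or TTTAAA was present there in 51.2% against 28.1%, TTTAAA in 22% against 13.7%, and CCAAT in 70.7% against 37.5%. TTTGAA overlapped another of the motifs in 1 window. A match describes letters only, and no binding was measured.

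The 120 bases directly before the start are printed for 7 genes picked from those whose values are given by sample. Among the 7 are a gene that has no motif there (Mybl2) and the gene that changed least in KPC cells (Bub3). The printed bases run 5′ to 3′ on the gene's strand, with the 3 motifs or their reverse complements in capitals. The stretches are chr10:69352913-69353032 (minus strand) for Cdk1, chr13:100786487-100786606 (minus) for Ccnb1, chr4:118437344-118437463 (minus) for Cdc20, chr11:99024190-99024309 (minus) for Top2a, chr7:135716380-135716499 (minus) for Mki67, chr2:163054515-163054634 (plus) for Mybl2 and chr7:131560250-131560369 (plus) for Bub3.
Cdk1: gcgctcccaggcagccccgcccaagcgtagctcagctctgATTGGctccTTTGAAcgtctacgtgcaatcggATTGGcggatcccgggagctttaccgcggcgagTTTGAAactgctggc
Ccnb1: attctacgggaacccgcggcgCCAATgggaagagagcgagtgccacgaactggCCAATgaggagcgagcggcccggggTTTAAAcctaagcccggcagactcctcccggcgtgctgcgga
Cdc20: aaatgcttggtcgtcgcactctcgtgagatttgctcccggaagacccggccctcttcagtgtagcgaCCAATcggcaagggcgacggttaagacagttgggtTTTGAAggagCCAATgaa
Top2a: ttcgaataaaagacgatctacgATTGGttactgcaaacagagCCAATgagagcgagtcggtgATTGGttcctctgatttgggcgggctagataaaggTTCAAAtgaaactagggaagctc
Mki67: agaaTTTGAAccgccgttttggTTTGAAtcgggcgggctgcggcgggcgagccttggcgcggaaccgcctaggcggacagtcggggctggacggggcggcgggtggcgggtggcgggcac
Mybl2: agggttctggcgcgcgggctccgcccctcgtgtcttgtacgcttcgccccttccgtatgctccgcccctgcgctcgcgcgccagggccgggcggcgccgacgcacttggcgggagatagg
Bub3: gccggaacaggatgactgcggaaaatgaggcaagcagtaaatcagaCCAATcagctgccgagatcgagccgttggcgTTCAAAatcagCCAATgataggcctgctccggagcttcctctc

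Between 11489 and 12772 genes reached 1 FPKM in a cell library, and between 12386 and 13414 in a tumour library. FPKM keeps no read counts, so the depth of the libraries is unknown and no counting interval can be given. The mean log2(FPKM + 1) over the genes described here serves as a summary of each library. In SW1990, replicate 1 of the RMC-6236 arm stood apart with a mean of 4.11, against 4.35 and 4.34 in the other samples of its arm, and control replicate 1 had 4.27 against 4.39 and 4.37. In tumours, RMC-6236 replicate 1 had 2.80, below the 3.13 to 3.37 of the other 3, and combination replicate 2 had 3.06, below the 3.35 to 3.55 of the other 3. Some of the counts that rest on these libraries are given with and without them. Others are given with all libraries only, or with a range over libraries left out in turn. Of 12 epithelial markers 10 reached 1 FPKM in PSN1 control cells, where ESRP1 was listed at 0, 12 in SW1990 and 9 in KPC cells. KIF4A and PTTG1 have near-identical copies elsewhere in the human genome that could share their reads, so their values are less certain.

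**Figure D1:**
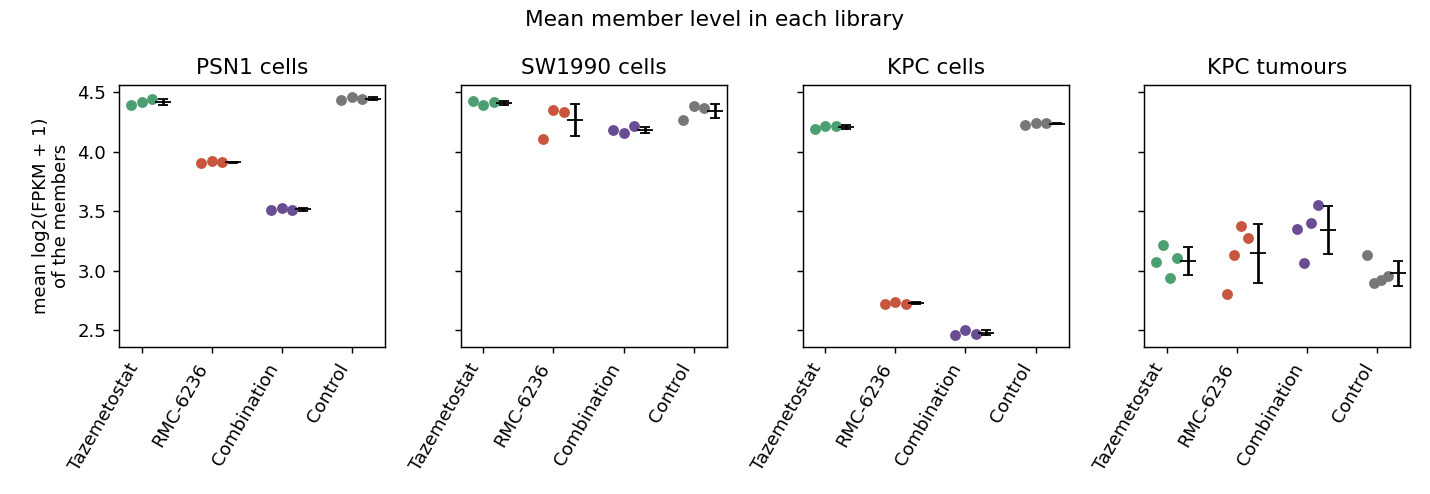
Mean log2(FPKM + 1) over the mitosis and G2/M genes in each library (points), with the mean and SD of each arm (black), for the 4 tables. KPC cells with RMC-6236 or the combination lie near 2.7 and 2.5, far below the 4.2 of tazemetostat and control, whereas in tumours the arms overlap and the combination averages highest.

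In PSN1 cells the genes fell broadly with RMC-6236. Of the 50 genes, 43 fell and 4 rose, and 34.6% of all 13358 genes tested were called lower and 45.8% higher. Calls here and below are at an adjusted p under 0.05 in limma on log2(FPKM + 1), adjusted by Benjamini-Hochberg over all genes tested, and changes are in log2 units with their standard error. The median change of the genes was -0.51, against 0.08 over all genes tested, and 6 of them fell at least 2-fold. Without control replicate 1, or with libraries rescaled by their median ratio, 2 rose. The summed level of 12 fibroblast markers was 116 to 119 FPKM with RMC-6236, against 29.5 to 29.8 in control. Of these markers 6 reached 1 FPKM with RMC-6236, and POSTN, THY1, COL1A2 and MFAP5 were listed at 0. The summed level of 12 epithelial markers was higher too, at 1009 to 1038 FPKM against 664 to 676 in control. The summed level of 10 T cell markers was lower, at 19.2 to 21.4 FPKM with RMC-6236 against 130 to 133 in control. Among these, CD3D, CD3E and CD3G were listed at 0 in both arms. The part of these sums in the result was not tested. In these samples, as in every bulk sample here, fewer dividing cells and less RNA per cell cannot be told apart.

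CDK1, the kinase that triggers mitosis, had 25.8, 26 and 25.6 FPKM with tazemetostat, 8.1, 8.65 and 8.89 with RMC-6236, 7.15, 6.98 and 6.52 with the combination and 23.8, 24 and 23.7 in control. The RMC-6236 and combination samples lay far below the control samples without overlap. Its change with RMC-6236 was -1.38 ± 0.04 (adjusted p = 1.7e-12). CCNB1, its main B-type cyclin, had 92.3, 94 and 93.7 FPKM with tazemetostat, 72.7, 75.6 and 69.5 with RMC-6236, 57.7, 54.3 and 56.6 with the combination and 102, 105 and 103 in control. No RMC-6236 sample reached a control sample, and the change was -0.50 ± 0.03 (adjusted p = 4.5e-09). Within the CDK1 and cyclin group 5 of 8 genes fell and 1 rose. The riser was CDC25B, the phosphatase that starts CDK1 activation at centrosomes, with 102, 102 and 101 FPKM with tazemetostat, 96.3, 101 and 99.5 with RMC-6236, 148, 146 and 144 with the combination and 80.8, 81.5 and 78.2 in control. Every treated sample of CDC25B was above every control sample, and the combination was highest (RMC-6236 change 0.30 ± 0.02, adjusted p = 3.0e-08). CCNB2 (0.01, adjusted p = 0.9) and CDC25C (0.04, adjusted p = 0.61) did not pass the test.

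Both transcription factors of the G2/M program fell. MYBL2, which joins the MuvB complex in S phase, had 57.6, 58.9 and 58.4 FPKM with tazemetostat, 24.1, 23.8 and 23.2 with RMC-6236, 15.9, 15.8 and 14.4 with the combination and 67.5, 66.4 and 67.2 in control. FOXM1 had 18.5, 17.4 and 18.2 FPKM with tazemetostat, 12.5, 13.6 and 14.1 with RMC-6236, 10.2, 9.84 and 10.0 with the combination and 19.4, 19.5 and 19.4 in control. In both genes no RMC-6236 or combination sample was as high as a control sample. The RMC-6236 change was -1.46 ± 0.03 for MYBL2 (adjusted p = 3.1e-13) and -0.51 ± 0.04 for FOXM1 (adjusted p = 6.7e-08). MKI67, the protein that coats mitotic chromosomes, had 16.5, 17.5 and 17.6 FPKM with tazemetostat, 10.9, 10.5 and 10.7 with RMC-6236, 7.88, 7.14 and 7.78 with the combination and 17, 17.3 and 17.2 in control. The control and tazemetostat samples of MKI67 overlapped and the other arms lay below them (RMC-6236 change -0.64 ± 0.04, adjusted p = 4.0e-09).

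Among the Polo, Aurora and related kinases and their partners 8 of 9 genes fell and NEK2 rose. PLK1, which acts at centrosomes, kinetochores and the midbody, had 47.3, 48.1 and 48 FPKM with tazemetostat, 27.5, 28.6 and 28 with RMC-6236, 19.8, 19.9 and 19.3 with the combination and 49.6, 48.6 and 50.3 in control. AURKA, the Aurora kinase of spindle poles, had 103, 104 and 108 FPKM with tazemetostat, 81.8, 81.9 and 81.2 with RMC-6236, 58.9, 58.7 and 58.2 with the combination and 108, 108 and 107 in control. Both were lower in every RMC-6236 sample than in any control sample, with changes of -0.80 ± 0.02 for PLK1 (adjusted p = 3.6e-12) and -0.40 ± 0.02 for AURKA (adjusted p = 4.5e-10). NEK2, a kinase of centrosome separation, had 12.3, 11.6 and 13 FPKM with tazemetostat, 17.3, 14.9 and 15.5 with RMC-6236, 10.9, 11 and 11.4 with the combination and 13.7, 15.1 and 14.1 in control. Its RMC-6236 and control samples overlapped, and the change was small (0.14 ± 0.05, adjusted p = 0.025), at 0.09 and not called without RMC-6236 replicate 1 and not called without control replicate 1 or 3.

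All 6 spindle checkpoint genes and all 3 genes of sister chromatid cohesion and separation fell. The steepest fall of the 50 was that of CDCA5, or sororin, which protects cohesion, with 21.5, 21.6 and 22.3 FPKM with tazemetostat, 6.41, 6.26 and 6.18 with RMC-6236, 4.89, 4.83 and 4.45 with the combination and 22.7, 22.9 and 23.5 in control. Its RMC-6236 samples lay far below control (change -1.72 ± 0.03, adjusted p = 1.4e-13). MAD2L1, the checkpoint protein that holds back CDC20, had 11.8, 12.2 and 11.5 FPKM with tazemetostat, 3.85, 3.82 and 3.91 with RMC-6236, 3.18, 2.91 and 2.96 with the combination and 12.9, 12.8 and 13 in control. Its RMC-6236 samples too lay far below control (change -1.52 ± 0.03, adjusted p = 4.3e-13). Of 7 spindle motors and microtubule proteins 6 fell, and DLGAP5 (-0.05, adjusted p = 0.24) did not pass the test. Among the 6 centromere and kinetochore genes 5 fell and CENPF rose slightly (0.09 ± 0.03, adjusted p = 0.011). KIF20A, a kinesin of the central spindle in cytokinesis, rose while the other 6 genes of its group fell. It had 19.6, 20.2 and 19.9 FPKM with tazemetostat, 21, 20.2 and 20.9 with RMC-6236, 18, 17.3 and 18.1 with the combination and 16.5, 16.3 and 15.3 in control, so that each drug arm lay above control (RMC-6236 change 0.35 ± 0.03, adjusted p = 3.4e-07).

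**Figure D2:**
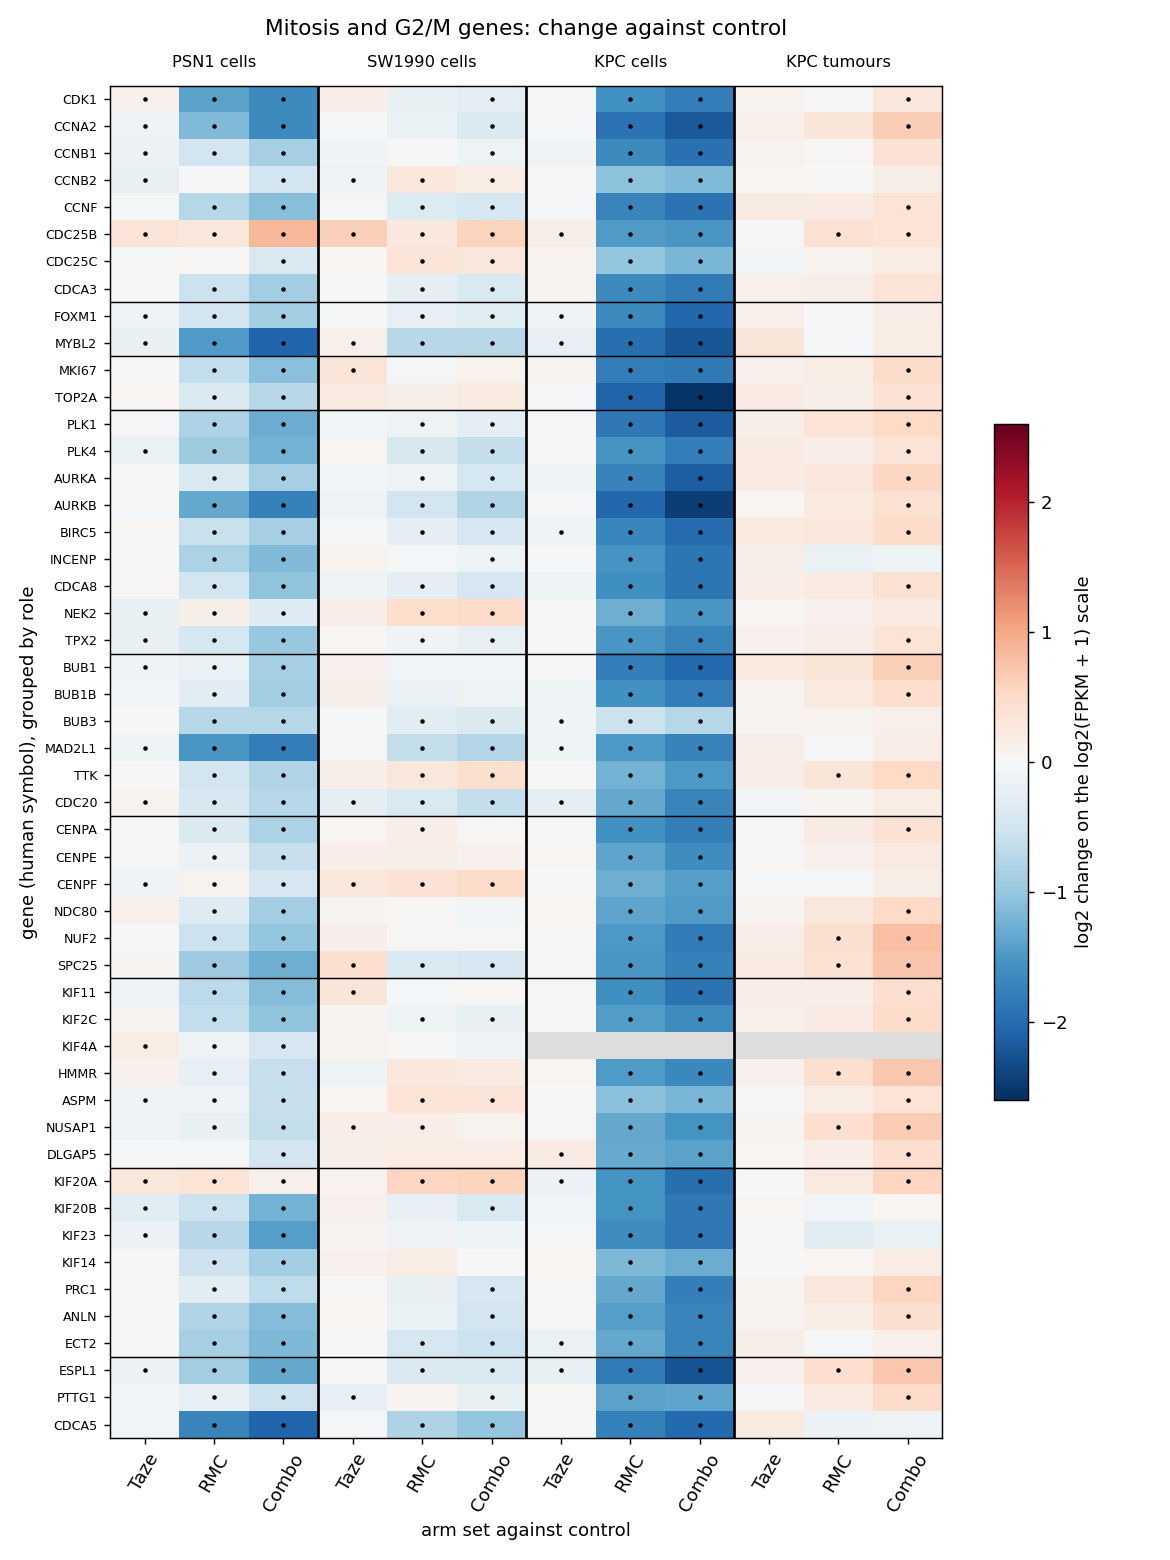
Log2 change of each gene against control (colour, log2(FPKM + 1) scale) with tazemetostat (Taze), RMC-6236 (RMC) and the combination (Combo) in PSN1, SW1990 and KPC cells and in KPC tumours, with genes grouped by role, a dot where the adjusted p is under 0.05 and grey where a gene was not matched. RMC-6236 and combination columns are uniformly lower in KPC cells, mostly lower in PSN1, mixed in SW1990 and mostly higher with the combination in tumours.

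SW1990 cells changed less and in both directions. With RMC-6236, 19 of 50 genes fell and 10 rose, where 41.7% of all 12913 genes tested were called lower and 30.7% higher, so the share of the genes called lower was near that of all genes. Their median change was -0.10, against -0.06 over all genes. The split depended on scaling and on the library that stood apart. With libraries rescaled by their median ratio, which raised the higher calls of all genes to 53.2% of the called genes, against 42.4% without it, 14 fell and 19 rose. Without control replicate 1, 21 fell and 6 rose, without RMC-6236 replicate 1, 17 fell and 16 rose, and without both, 20 fell and 16 rose.

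The genes with the largest rises in SW1990 were KIF20A, NEK2 and CENPF. KIF20A had 24.8, 25.2 and 25.6 FPKM with tazemetostat, 32.8, 37.1 and 35.2 with RMC-6236, 34.8, 34.5 and 36.7 with the combination and 22.8, 23.9 and 23.6 in control. All RMC-6236 and combination samples lay above every control sample (RMC-6236 change 0.56 ± 0.04, adjusted p = 9.1e-08). NEK2 had 16.6, 16.8 and 16.2 FPKM with tazemetostat, 17.3, 22.3 and 21.5 with RMC-6236, 21.3, 20.8 and 20.6 with the combination and 13.1, 15.1 and 15.4 in control, again with no overlap between RMC-6236 and control (change 0.46 ± 0.08, adjusted p = 1.7e-04). CENPF, a large protein of the outer kinetochore, had 13.3, 11.9 and 13.4 FPKM with tazemetostat, 11.6, 14.8 and 14.5 with RMC-6236, 14.4, 14.3 and 15.5 with the combination and 9.8, 10.4 and 10.6 in control. Its lowest RMC-6236 sample was the replicate that stood apart, and it still exceeded every control sample (change 0.37 ± 0.08, adjusted p = 8.8e-04). CDC25B rose too, with 41.6, 42.4 and 43.1 FPKM with tazemetostat, 32.2, 32.8 and 35.6 with RMC-6236, 40.5, 41.1 and 43.2 with the combination and 28, 27.5 and 26.5 in control and a change of 0.28 ± 0.04 (adjusted p = 3.6e-05).

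The genes that fell most in SW1990 included those that fell most in PSN1. CDCA5 had 25.5, 25.5 and 24.8 FPKM with tazemetostat, 14.1, 14.4 and 14.5 with RMC-6236, 12.7, 12.6 and 11.5 with the combination and 25.7, 26.5 and 24.8 in control. MYBL2 had 154, 157 and 149.6 FPKM with tazemetostat, 85, 84.5 and 83.6 with RMC-6236, 84.7, 84.8 and 85.6 with the combination and 147, 137 and 137 in control. In both, the RMC-6236 and combination samples formed a tight group well below control (RMC-6236 changes -0.80 ± 0.04 for CDCA5, adjusted p = 1.3e-09, and -0.72 ± 0.03 for MYBL2, adjusted p = 2.9e-10). MAD2L1 had 11.7, 10.8 and 11.3 FPKM with tazemetostat, 6.11, 7.47 and 7.21 with RMC-6236, 5.98, 6.22 and 6.19 with the combination and 9.81, 11.8 and 11.7 in control, a change of -0.61 ± 0.07 (adjusted p = 6.6e-06) with no overlap between RMC-6236 and control. Across the 50 genes the RMC-6236 changes in PSN1 and SW1990 had a Spearman rho of 0.80 and a Pearson r of 0.85, given as a description, since the genes share libraries and are not independent.

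MKI67, CDK1 and CCNB1 did not pass the test in SW1990 with RMC-6236. MKI67 had 23, 22.4 and 23.3 FPKM with tazemetostat, 15.4, 18.1 and 18.6 with RMC-6236, 19.3, 18.5 and 19.6 with the combination and 17, 18.9 and 17.9 in control. Its RMC-6236 and control samples overlapped (change -0.05, adjusted p = 0.49). CDK1 had 74.3, 67.2 and 70.9 FPKM with tazemetostat, 44.5, 60.4 and 60.1 with RMC-6236, 51.2, 52.7 and 53 with the combination and 55.6, 65 and 66.8 in control, with overlap of RMC-6236 and control (-0.19, adjusted p = 0.11). CCNB1 had 60.8, 59.6 and 59.2 FPKM with tazemetostat, 58.7, 66.1 and 66.9 with RMC-6236, 55.7, 58.3 and 60.8 with the combination and 61.5, 64.9 and 65.6 in control, also overlapping (0.00, adjusted p = 0.95). PLK1, AURKA and FOXM1 fell slightly. PLK1 had 32.5, 33.8 and 35 FPKM with tazemetostat, 30.9, 32.7 and 32.8 with RMC-6236, 30.7, 28.3 and 29.3 with the combination and 36.8, 36.4 and 33.3 in control. AURKA had 44.9, 44.1 and 45.4 FPKM with tazemetostat, 38.9, 45.5 and 45.1 with RMC-6236, 34.3, 34.2 and 34.6 with the combination and 47.2, 47.4 and 47.5 in control. FOXM1 had 57.5, 57.5 and 58.4 FPKM with tazemetostat, 49.8, 51.6 and 53.5 with RMC-6236, 47.5, 46.6 and 48.7 with the combination and 61.4, 59.1 and 59.2 in control. In each of the 3 all RMC-6236 samples lay below all control samples. The RMC-6236 changes were -0.14 for PLK1 (adjusted p = 0.016), -0.14 for AURKA (adjusted p = 0.022) and -0.21 for FOXM1 (adjusted p = 6.8e-05). The change of AURKA was -0.06 without RMC-6236 replicate 1, and it was not called without control replicate 2 or 3. PLK1 was not called without RMC-6236 replicate 1, control replicate 1 or control replicate 2, and without both replicates 1 its change was -0.09. With rescaled libraries neither was called, both at -0.02, while FOXM1 was called at -0.09.

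The response to RMC-6236 was lower in PSN1 than in SW1990 for 44 of 50 genes and higher for 0, by a test of the difference between the changes in the separately fitted tables (limma estimates, 0 genes higher also at an unadjusted p under 0.05), where 16.9% of 11547 genes tested were called lower and 43.9% higher. The median difference was -0.42, against 0.14 over all genes. CDK1 differed most, by -1.19 ± 0.11 (adjusted p = 1.4e-07), then CCNA2, the cyclin of S and G2 phases, by -0.98, and CDCA5 by -0.92. MKI67 differed by -0.59 ± 0.07 (adjusted p = 3.5e-07) and KIF20A, which rose in both lines, by -0.21 ± 0.05 (adjusted p = 0.0018), or by -0.36 with rescaled libraries. The 6 genes whose difference was not called were BUB1, BUB1B, CDC20, CDC25B, KIF4A and PRC1. With the combination 48 genes were lower and 1, CDC25B, higher in PSN1 (23.8% of all genes called lower, 39.1% higher).

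In KPC cells the genes fell together. With RMC-6236 all 49 fell and 0 rose by limma (0 were higher also at an unadjusted p under 0.05), where 35.8% of all 12567 genes tested were called lower and 37.9% higher. The median change was -1.54, against 0.02 over all genes, and 48 of the 49 fell at least 2-fold. Each role moved alike, with median changes between -1.94 for Mki67 and Top2a and -1.39 for spindle motors and microtubule proteins. Fibroblast markers summed to 67.1 to 68.6 FPKM with RMC-6236, against 41.6 to 42.5 in control, and epithelial markers to 2957 to 2985 with RMC-6236, against 3436 to 3568 in control. Neither sum overlapped between the arms, and their part in the result was not tested.

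Cdk1 had 19.6, 20.4 and 19.6 FPKM with tazemetostat, 5.62, 6.02 and 6.77 with RMC-6236, 5.25, 5.38 and 5.0 with the combination and 20.6, 19.9 and 20.5 in control. Ccnb1 had 23.5, 24.3 and 23.9 FPKM with tazemetostat, 7.57, 7.75 and 6.92 with RMC-6236, 5.93, 5.78 and 5.94 with the combination and 25.4, 24.5 and 26.7 in control. For both, the RMC-6236 and combination samples were well below control (RMC-6236 changes -1.58 ± 0.05 for Cdk1, adjusted p = 1.8e-11, and -1.66 ± 0.04 for Ccnb1, adjusted p = 2.4e-12). These are the genes shown above with TTTGAA (Cdk1) and TTTAAA (Ccnb1) close to the start. Cdc25b, which rose in both human lines, fell here, with 49.9, 49.3 and 49.2 FPKM with tazemetostat, 14.4, 15.6 and 16.2 with RMC-6236, 14.4, 15.7 and 14.3 with the combination and 43.5, 44.3 and 45.2 in control. Its RMC-6236 change was -1.47 ± 0.04 (adjusted p = 7.4e-12).

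Top2a, the enzyme that untangles sister chromatids, had the steepest fall on the log2(FPKM + 1) scale. On that scale changes of genes at lower levels, such as Aurkb and Mybl2 below, appear smaller than they are. Top2a had 69.3, 70.9 and 72.3 FPKM with tazemetostat, 16.6, 15.9 and 16.3 with RMC-6236, 11.2, 12.1 and 11.2 with the combination and 71.7, 71.6 and 73.3 in control. Its change with RMC-6236 was -2.08 ± 0.03 (adjusted p = 6.7e-14). Mki67 had 22.1, 22.5 and 23.3 FPKM with tazemetostat, 5.16, 5.65 and 5.66 with RMC-6236, 4.98, 5.71 and 5.14 with the combination and 20.7, 22.3 and 21.4 in control, and every RMC-6236 and combination sample lay far below control (change -1.79 ± 0.05, adjusted p = 4.1e-12). Aurkb, the kinase of the chromosomal passenger complex, had 37.5, 36.9 and 39 FPKM with tazemetostat, 8.33, 9.04 and 8.5 with RMC-6236, 6.18, 6.61 and 5.98 with the combination and 37.6, 39.2 and 38.9 in control. It stood next to Top2a in size of change (-2.04 ± 0.04, adjusted p = 3.1e-13). Mybl2, whose printed promoter stretch holds none of the motifs, had 18, 17.9 and 18.9 FPKM with tazemetostat, 4.18, 5.25 and 4.87 with RMC-6236, 3.66, 3.79 and 3.82 with the combination and 21, 20.9 and 22.1 in control. Its RMC-6236 and combination samples lay far below control (change -1.96 ± 0.06, adjusted p = 7.5e-12). Over the 41 genes with a promoter window, the median RMC-6236 change was -1.55 for the 29 with TTTGAA and -1.50 for the 12 without it.

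Plk1 had 50.9, 50.8 and 50.3 FPKM with tazemetostat, 15, 12.9 and 12.8 with RMC-6236, 10.2, 10.5 and 11.6 with the combination and 50.4, 51.7 and 53.9 in control. Aurka had 30.7, 31.6 and 32.3 FPKM with tazemetostat, 9.36, 9.76 and 9.54 with RMC-6236, 7.16, 7.41 and 6.4 with the combination and 33.1, 34.4 and 35.3 in control. Foxm1 had 26.9, 27.4 and 28 FPKM with tazemetostat, 8.91, 8.73 and 8.42 with RMC-6236, 6.19, 6.64 and 6.44 with the combination and 29.5, 30.2 and 28.9 in control. All RMC-6236 and combination samples of these genes were below every control sample, with RMC-6236 changes of -1.87 for Plk1, -1.74 for Aurka and -1.66 for Foxm1 and adjusted p values no higher than 1.1e-11. Kif20a, which rose in the human lines, fell, with 26.2, 27.8 and 27.1 FPKM with tazemetostat, 9.43, 9.55 and 9.78 with RMC-6236, 6.88, 7.2 and 6.95 with the combination and 28.8, 31.3 and 30.7 in control and a change of -1.56 ± 0.04 (adjusted p = 1.3e-12).

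Bub3, a checkpoint protein that brings Bub1 to kinetochores, changed least. It had 13.3, 12.9 and 12.8 FPKM with tazemetostat, 9.19, 8.9 and 9.25 with RMC-6236, 8.06, 7.8 and 7.92 with the combination and 14, 14 and 13.9 in control, a change of -0.57 ± 0.03 (adjusted p = 2.5e-09), with no overlap between RMC-6236 and control. The rank order of the changes in KPC cells was less like that of the human lines, with a Spearman rho of 0.49 against PSN1 (Pearson r 0.43) and 0.46 against SW1990 (Pearson r 0.40).

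**Figure D3:**
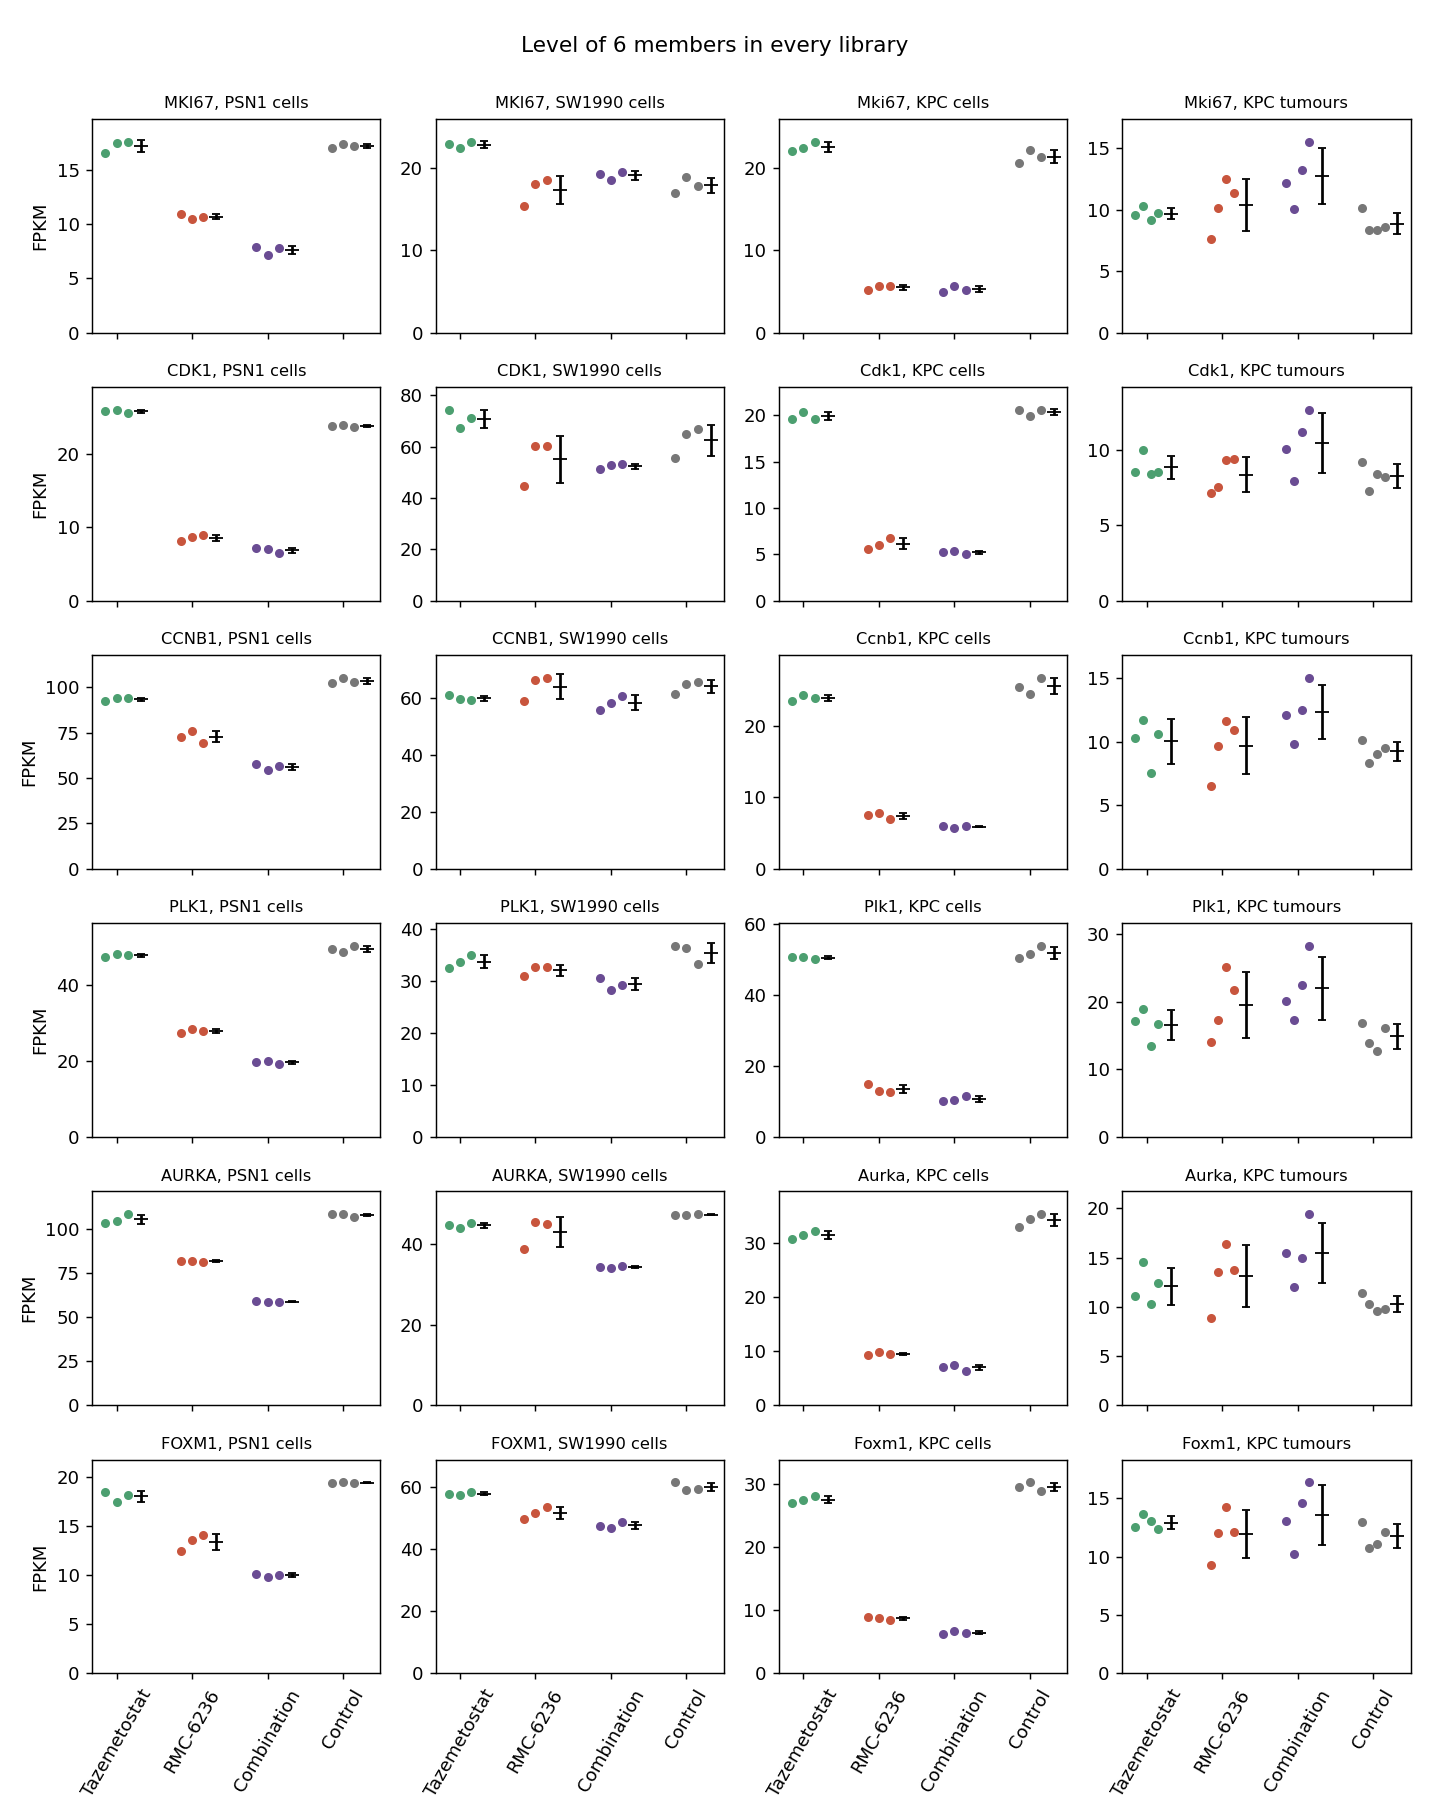
FPKM of MKI67, CDK1, CCNB1, PLK1, AURKA and FOXM1 in every library (points) of the 4 tables, with the mean and SD of each arm (black), on axes that start at 0. In KPC cells all RMC-6236 and combination samples lie below all control samples for the 6 genes, and in tumours RMC-6236 and control overlap for each of them while all combination samples lie above control for Plk1 and Aurka.

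In KPC tumours none of the genes was called lower, and most were called higher with the combination. With RMC-6236, 7 of 49 rose and 0 fell by limma (0 were lower also at an unadjusted p under 0.05), where 20.3% of all 13545 genes tested were called higher and 19.2% lower, so the share that rose was below that of all genes. The median change was 0.19, against 0.01 over all genes. The count rested on single libraries: 25 rose and 0 fell without RMC-6236 replicate 1, while 2 rose without RMC-6236 replicate 3 or control replicate 3, 3 without RMC-6236 replicate 4, and 4 without control replicate 2 or 4 or with no filter on low values. With the combination 31 rose and 0 fell (0 lower also unadjusted), where 26.7% of all genes were called higher and 25.7% lower. The median change with the combination was 0.38, against 0.00 over all genes.

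The tumours also differed in the cell types whose markers they held. The summed FPKM of 12 epithelial markers was 2893 to 5461 with tazemetostat, 1542 to 2143 with RMC-6236, 916 to 1511 with the combination and 3262 to 4083 in control. Fibroblast markers summed to 624 to 1337 with tazemetostat, 3038 to 4060 with RMC-6236, 3411 to 4006 with the combination and 877 to 1189 in control. Macrophage markers summed to 458 to 690 with tazemetostat, 1187 to 1695 with RMC-6236, 1538 to 2114 with the combination and 506 to 630 in control. All 12 genes of each of these lists reached 1 FPKM. Both arms with RMC-6236 thus held less epithelial and more fibroblast and macrophage RNA than control, without overlap. RMC-6236 replicate 1, the lowest of its arm for the mitotic genes, had the highest fibroblast (4060) and macrophage (1695) sums of the arm. Combination replicate 4, the highest of its arm for the mitotic genes, had the highest macrophage sum (2114) and the lowest epithelial sum (916) of that arm. Acinar markers summed to 86.7 to 3053 with the combination, against 12.3 to 43.6 in control, and neutrophil markers to 52.2 to 231 with the combination, against 20.5 to 45.3 in control. Erythroid markers summed to 69.9 to 177 against 29.6 to 46.6, and T cell markers to 5.44 to 8.5 against 0.976 to 2.69. Of the 10 T cell markers 2 reached 1 FPKM with the combination. B cell and endothelial sums overlapped between combination and control. With RMC-6236 the endothelial sum was 26.2 to 30.4, below the 34.4 to 42.7 of control. The part of cell makeup in the changes of the mitotic genes was not tested.

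Mki67 had 9.59, 10.3, 9.12 and 9.74 FPKM with tazemetostat, 7.59, 10.1, 12.5 and 11.4 with RMC-6236, 12.2, 10.1, 13.2 and 15.5 with the combination and 10.1, 8.31, 8.36 and 8.59 in control. Of the 4 combination samples 3 were above every control sample, and the RMC-6236 samples spanned the control range. Its change was 0.47 ± 0.13 with the combination (adjusted p = 0.0067) and 0.20 with RMC-6236 (adjusted p = 0.25). Cdk1 had 8.5, 10.0, 8.37 and 8.51 FPKM with tazemetostat, 7.14, 7.55, 9.33 and 9.38 with RMC-6236, 10.0, 7.96, 11.2 and 12.7 with the combination and 9.18, 7.28, 8.4 and 8.2 in control. Combination and control overlapped, with a change of 0.29 ± 0.12 (adjusted p = 0.047), and RMC-6236 gave 0.01 (adjusted p = 0.96). The combination call of Cdk1 was lost without combination replicate 1, 3 or 4 or control replicate 2, 3 or 4, with changes of 0.20 to 0.41 over the 8 libraries left out in turn. Ccnb1 had 10.3, 11.7, 7.56 and 10.6 FPKM with tazemetostat, 6.55, 9.64, 11.7 and 10.9 with RMC-6236, 12.1, 9.81, 12.5 and 15 with the combination and 10.1, 8.33, 9.04 and 9.49 in control, also with overlap, and did not pass the test with the combination (0.37, adjusted p = 0.062). In the CDK1 and cyclin group 4 of 8 genes rose with the combination.

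Plk1 had 17.1, 18.9, 13.4 and 16.7 FPKM with tazemetostat, 14, 17.3, 25.1 and 21.8 with RMC-6236, 20.1, 17.2, 22.4 and 28.2 with the combination and 16.8, 13.9, 12.7 and 16.1 in control. Aurka had 11.1, 14.6, 10.3 and 12.5 FPKM with tazemetostat, 8.84, 13.5, 16.4 and 13.7 with RMC-6236, 15.5, 12, 15 and 19.4 with the combination and 11.4, 10.3, 9.59 and 9.73 in control. All combination samples of both genes were above all control samples (changes 0.52 ± 0.17 for Plk1, adjusted p = 0.018, and 0.54 ± 0.16 for Aurka, adjusted p = 0.012), and that of Plk1 was not called without combination replicate 4 (0.40) or control replicate 3 (0.45). With the kinases and partners 7 of 9 rose, and with the spindle motors and microtubule proteins 6 of 6. Foxm1 had 12.6, 13.7, 13.1 and 12.4 FPKM with tazemetostat, 9.29, 12, 14.3 and 12.1 with RMC-6236, 13.1, 10.2, 14.6 and 16.4 with the combination and 13, 10.7, 11.1 and 12.1 in control. The arms of Foxm1 overlapped, and neither it (0.18, adjusted p = 0.24) nor Mybl2 (0.18, adjusted p = 0.21) passed the test with the combination.

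Genes of chromosome separation and attachment were among those with the largest rises in tumours. Nuf2, a subunit of the Ndc80 complex that ties kinetochores to microtubules, had 3.32, 3.17, 3.4 and 3.6 FPKM with tazemetostat, 3.21, 4.57, 5.18 and 4.07 with RMC-6236, 5.15, 4.55, 6.09 and 7.19 with the combination and 3.5, 2.81, 2.41 and 2.87 in control. Every combination sample exceeded every control sample (change 0.78 ± 0.13, adjusted p = 1.2e-04, against 0.43 ± 0.13 with RMC-6236, adjusted p = 0.016), and the RMC-6236 change was not called without RMC-6236 replicate 3 (0.34) or control replicate 3 (0.36). Espl1, or separase, the protease that cuts cohesin at anaphase, had 5.0, 4.96, 4.84 and 5.27 FPKM with tazemetostat, 5.12, 6.45, 7.48 and 7.26 with RMC-6236, 8.26, 6.36, 8.13 and 9.87 with the combination and 5.19, 4.78, 3.92 and 4.36 in control. Its combination samples were all above control, and its RMC-6236 samples overlapped control at replicate 1 (RMC-6236 change 0.44 ± 0.12, adjusted p = 0.0079). Nusap1, which bundles spindle microtubules, had 8.42, 10.1, 6.63 and 8.35 FPKM with tazemetostat, 7.73, 10.5, 14 and 12.8 with RMC-6236, 14, 10.1, 14.2 and 13.9 with the combination and 9.01, 6.61, 7.82 and 8.17 in control. It rose with RMC-6236 (0.44 ± 0.16, adjusted p = 0.041) and with the combination (0.65 ± 0.16, adjusted p = 0.0033). The RMC-6236 call was lost without replicate 2, 3 or 4 of either arm, with changes of 0.33 to 0.59 over the 8 libraries left out in turn. The other 4 that rose with RMC-6236 were Hmmr (0.42), Cdc25b (0.39), Spc25 (0.39) and Ttk (0.31), with adjusted p values between 0.011 and 0.048. Of the 18 genes not called with the combination, Kif23 (-0.18), Cdca5 (-0.14) and Incenp (-0.11) had negative values.

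Set against each other, KPC tumours and KPC cells differed in their response at every gene. The change with RMC-6236 was higher in tumours than in cells for 49 of 49 genes and lower for 0 (limma estimates, 0 lower also at an unadjusted p under 0.05), where 26.2% of 12068 genes tested were called higher and 28.7% lower. The median difference was 1.69, against -0.03 over all genes. It was smallest for Bub3, at 0.66 ± 0.07 (adjusted p = 7.6e-08), then for Ccnb2 (1.09) and Cdc25c (1.10), and widest for Aurkb, at 2.29 ± 0.13 (adjusted p = 9.4e-11), after Espl1 (2.26) and Ccna2 (2.24). Cdk1 differed by 1.59 ± 0.13 and Mki67 by 1.99 ± 0.14. The same 49 of 49 were higher for the combination (31.1% of all genes called higher, 32.4% lower), with a median of 2.12 and the widest difference in Espl1, at 2.96 ± 0.12. Leaving out tumour RMC-6236 replicate 1 left the count for RMC-6236 at 49. The order of the changes in cells was not that in tumours, with a Spearman rho of -0.14 (Pearson r -0.11) over the 49 genes. The 2 tables were normalized apart, so changes and not levels were compared. The macrophage genes C1qa, C1qb and C1qc and the fibroblast gene Thy1 were listed at 0 in every arm of KPC cells, while 4 to 5 of 12 fibroblast markers (sums of 40.1 to 68.6 FPKM) and 3 of 12 macrophage markers (sums of 71.0 to 90.2 FPKM) reached 1 FPKM there. Culture against animal, any difference of line and the makeup of the samples cannot be told apart here.

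**Figure D4:**
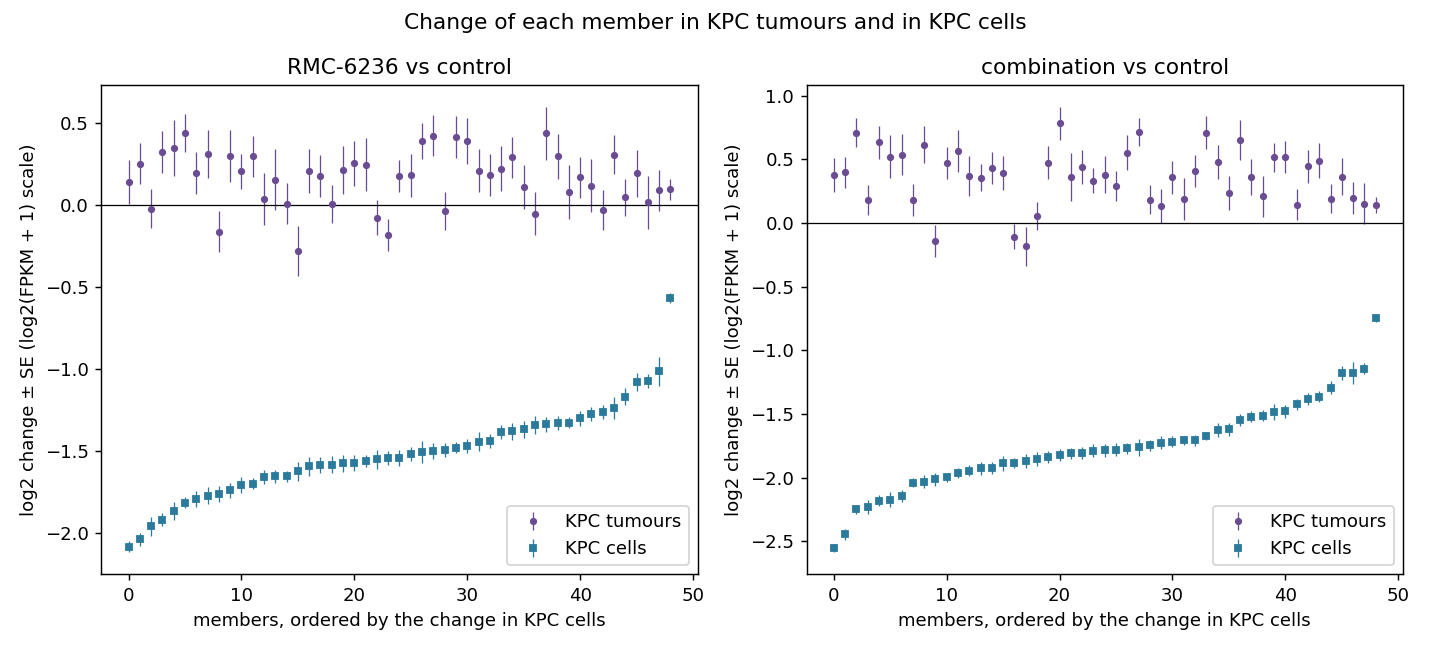
Log2 change against control (log2(FPKM + 1) scale, bars ± SE) of each mitosis and G2/M gene in KPC tumours (circles) and KPC cells (squares), with RMC-6236 on the left and the combination on the right, genes ordered by their change in cells. All squares lie below 0, while the circles lie around or above 0 in no order that follows the squares.

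Tazemetostat alone changed the genes by small amounts. In PSN1 15 fell and 5 rose of 50 (22.5% of all genes called lower, 23.6% higher), with a median of -0.03, against 0.00 over all genes. The falls were small, reaching -0.27 ± 0.05 for KIF20B, a cytokinesis kinesin (adjusted p = 3.5e-04), and the largest rise was that of CDC25B (0.34 ± 0.02, adjusted p = 5.2e-08). In SW1990 7 rose and 3 fell (23.1% of all genes higher, 14.4% lower). CDC25B rose most here too (0.61 ± 0.04, adjusted p = 1.7e-07), and MKI67 rose with no overlap with control (0.34 ± 0.06, adjusted p = 8.1e-04). CDC20, the activator of the anaphase promoting complex, fell in SW1990, with 68.3, 72.3 and 72.8 FPKM with tazemetostat, 64.1, 62 and 68.2 with RMC-6236, 56.5, 52.8 and 56.3 with the combination and 86.4, 85.4 and 83.3 in control (tazemetostat change -0.25 ± 0.04, adjusted p = 3.6e-04). In KPC cells 9 fell and 2 rose of 49 (25.5% of all genes lower, 18.6% higher), Cdc20 falling most (-0.22 ± 0.04, adjusted p = 2.6e-04) and Dlgap5, a microtubule protein, rising most (0.21 ± 0.05, adjusted p = 0.0033). Cdc25b was the other that rose (0.16 ± 0.04, adjusted p = 0.01). Without tazemetostat replicate 2, or with rescaled libraries, 5 fell. Rescaling gave 7 falls in SW1990, and a fit on the compared arms alone 11 rises there.

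In tumours tazemetostat changed 0 of 49 genes by limma, as it did 0% of all 13545 genes tested, although 3 of the genes were higher and 0 lower at an unadjusted p under 0.05, as were 1023 of all genes in either direction. Between tumours and cells the response to tazemetostat differed for 1 gene (10.2% of all genes called higher and 6.6% lower), Mybl2, by 0.53 ± 0.13 (adjusted p = 0.0095). In tumours Mybl2 had 4.42, 5.99, 6.25 and 4.81 FPKM with tazemetostat against 4.8, 4.12, 3.61 and 3.86 in control, with overlap between the arms. Without KPC cell tazemetostat replicate 2 the count was 2. Between PSN1 and SW1990 it was lower in PSN1 for 11 genes and higher for 3 (19% of all genes called lower, 15.1% higher), KIF20B differing by -0.39 (not called without SW1990 tazemetostat replicate 1 or control replicate 1) and CDC20 by 0.34. The order of the tazemetostat changes in PSN1 and SW1990 had a Spearman rho of 0.08 (Pearson r 0.24).

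Adding tazemetostat to RMC-6236 lowered most of the genes further in PSN1 and KPC cells. In PSN1, 48 of 50 were lower with the combination than with RMC-6236 alone and 1, CDC25B, was higher (30.1% of all genes called lower, 24.1% higher), with a median of -0.41. Set against control, 48 fell and 2 rose with the combination (37.1% of all genes lower, 45.5% higher) with a median of -0.89, against 0.07 over all genes, and 21 fell at least 2-fold. KIF23, a kinesin of the central spindle, had the widest step. It had 14.6, 14.8 and 15.6 FPKM with tazemetostat, 10.3, 9.42 and 10.1 with RMC-6236, 5.4, 5.49 and 6.08 with the combination and 16.1, 17.9 and 16.7 in control, so that all combination samples lay below all RMC-6236 samples (combination against RMC-6236 -0.72 ± 0.05, adjusted p = 8.2e-08). BUB3 was the gene with no called step (0.00, adjusted p = 0.95). With the combination, genes that RMC-6236 alone had raised or not changed also fell, such as NEK2 (-0.34 against control, adjusted p = 7.2e-05) and CCNB2 (-0.50, adjusted p = 1.3e-07).

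The interaction, the change with the combination beyond the sum of the changes with each drug on the log2 scale, was negative and called for 47 of 50 genes in PSN1 and positive for 1, CDC25B (13.8% of all genes called lower, 9.8% higher). NDC80, the name-giving subunit of its kinetochore complex, had the largest (-0.70 ± 0.08, adjusted p = 4.2e-05). MKI67 with the combination changed by -1.08 ± 0.04 and PLK1 by -1.29 ± 0.02 against control, further than with RMC-6236 alone (-0.44 and -0.49 for the step).

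In KPC cells 40 of 49 were lower with the combination than with RMC-6236 and 0 higher by limma (28.5% of all genes lower, 20.3% higher; 0 higher also at an unadjusted p under 0.05), with a median step of -0.25. All 49 fell against control (38.7% of all genes lower, 37.8% higher), with a median of -1.79. Top2a reached a change of -2.55 ± 0.03 with the combination and Aurkb one of -2.45 ± 0.04, whereas Mki67 did not differ by the test between the combination and RMC-6236 (-0.05 ± 0.05, adjusted p = 0.43). The interaction was called negative for 30 genes and positive for 0 (13.7% and 12.1% of all genes). At an unadjusted p under 0.05, 39 were negative and 0 positive, where 4667 of all 12567 genes tested passed in either direction.

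In SW1990, against control, 27 of 50 fell and 8 rose with the combination (40.9% of all genes lower, 38.3% higher), with CDCA5 past 2-fold (-1.01 ± 0.04, adjusted p = 6.1e-11). After rescaling of the libraries 14 rose. Set against RMC-6236, 15 were lower and 1 higher (18.3% of all genes lower, 29.8% higher), and AURKA had a step of -0.32 ± 0.05 (adjusted p = 1.2e-04). The number lower was 31 without RMC-6236 replicate 1 and 37 without it and control replicate 1, but 9 without RMC-6236 replicate 2, 7 without RMC-6236 replicate 3 or combination replicate 2, 8 without a filter, 9 in a fit on the compared arms and 26 after rescaling. The interaction was called negative for 7 genes and positive for 0 (6.19% and 9.03% of all genes), SPC25 having -0.45 ± 0.10 (adjusted p = 0.009). At an unadjusted p under 0.05, 13 were negative and 0 positive, where 3583 of all 12913 genes tested passed in either direction. Without RMC-6236 replicate 1 there were 27 negative calls, without it and control replicate 1 there were 30, and leaving out any other library gave 2 to 4. CDC25B was the gene higher with the combination than with RMC-6236 in both human lines, while its interaction was 0.22 in PSN1 and -0.31 in SW1990.

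In tumours 0 of 49 genes differed between the combination and RMC-6236 by limma (5.16% of all genes called higher, 2.97% lower). At an unadjusted p under 0.05, 8 were higher and 0 lower, where 3010 of all 13545 genes tested passed in either direction. Leaving out RMC-6236 replicate 3 gave 1 called gene and leaving out combination replicate 2 gave 3. The interaction was called for 0 of 49 (1.49% of all genes higher, 0.369% lower). At an unadjusted p under 0.05, 0 of the 49 passed, where 1950 of all genes tested did.

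**Figure D5:**
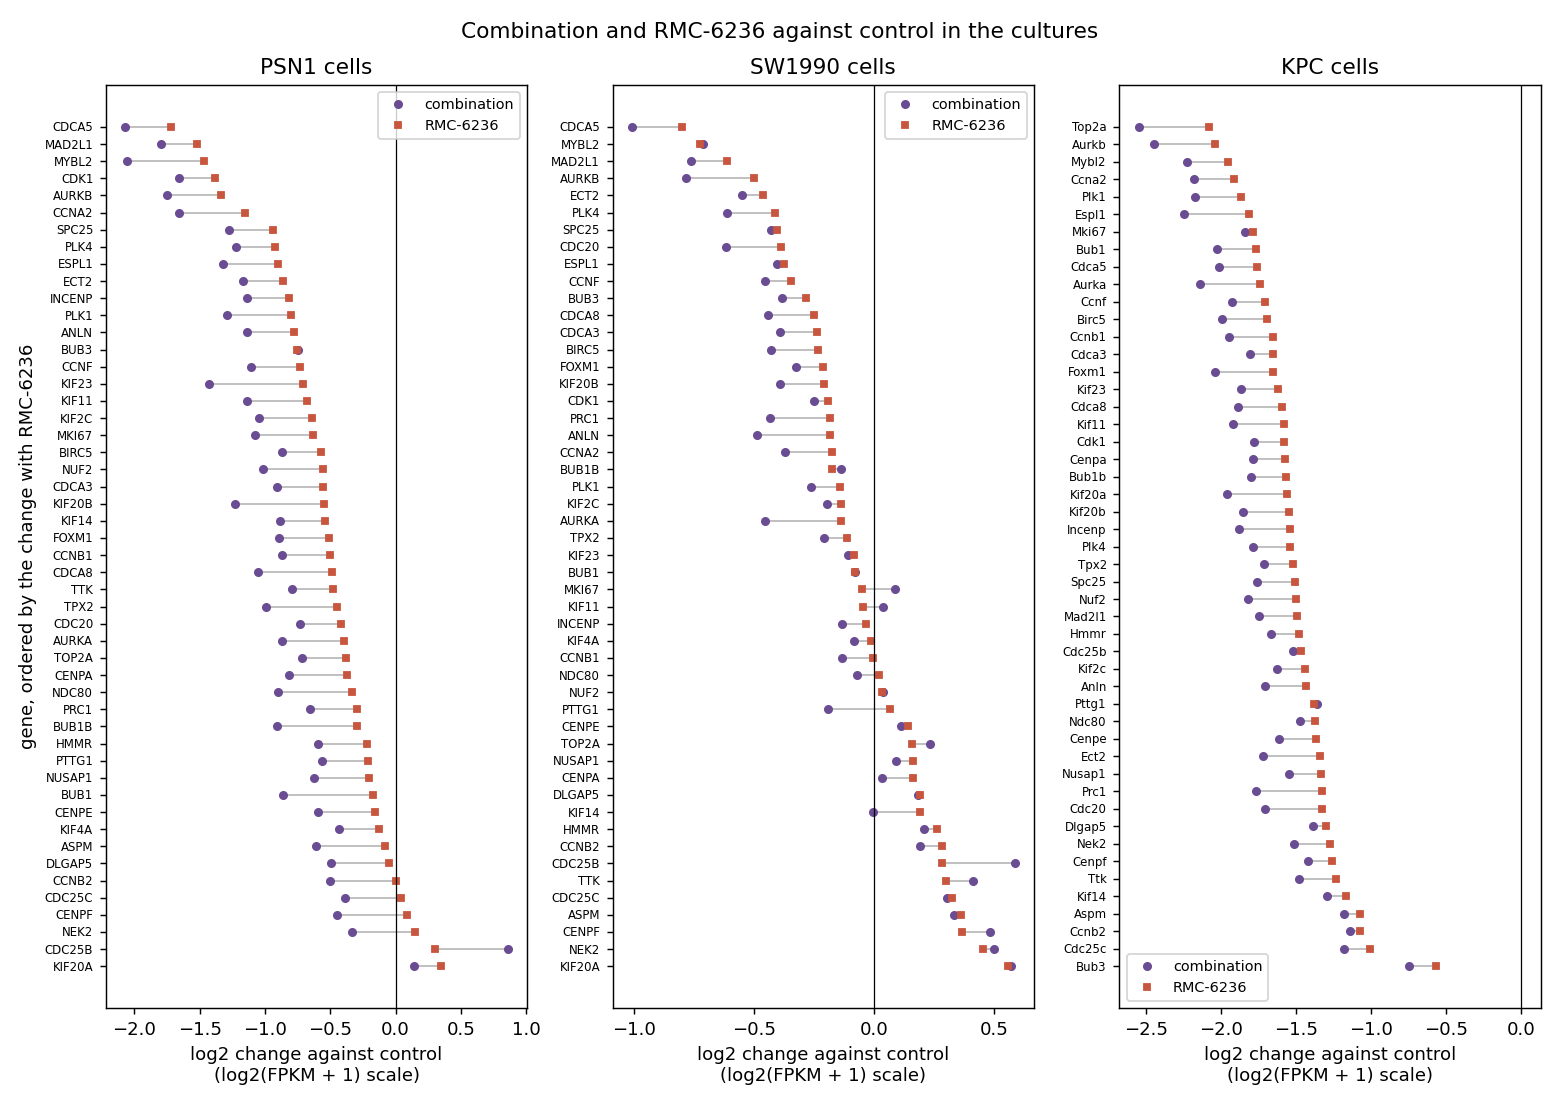
Log2 change against control (log2(FPKM + 1) scale) of each mitosis and G2/M gene with the combination (circles) and with RMC-6236 (squares) in PSN1, SW1990 and KPC cells, genes ordered by their change with RMC-6236. Circles lie left of squares for nearly every gene in PSN1 and most in KPC cells, and CDC25B in both human lines lies to the right.

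Genes that act beside these in the cycle were read from lists of textbook members, and over all genes tested the median change was 0.08 in PSN1, -0.06 in SW1990 and 0.02 in KPC cells with RMC-6236 and 0.00 in tumours with the combination. The shares of all genes called lower and higher were 34.6% and 45.8% in PSN1, 41.7% and 30.7% in SW1990 and 35.8% and 37.9% in KPC cells with RMC-6236, and 25.7% and 26.7% in tumours with the combination. All 41 S phase genes (DNA replication factors and their licensing) fell with RMC-6236 in each culture, with median changes of -1.46 in PSN1, -0.99 in SW1990 and -1.51 in KPC cells. In PSN1 and SW1990 these medians were steeper than the -0.51 and -0.10 of the mitotic genes, and in KPC cells they lay beside -1.54. In tumours 24 of the 41 rose with the combination, with a median of 0.30. With RMC-6236 in tumours 8 of the 41 rose and 1 fell, where 20.3% of all genes were called higher and 19.2% lower. The share that rose with RMC-6236 there was thus near that of all genes. Mcm5, a subunit of the replicative helicase, changed by 0.82 in tumours with the combination (adjusted p = 5.9e-05).

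Of 34 further kinetochore and centromere genes, 28 fell and 0 rose with RMC-6236 in PSN1, 23 of 33 tested fell in SW1990 and 30 of 31 in KPC cells, and in tumours with the combination 19 of 31 rose and 1 fell. The medians were -0.59, -0.34, -1.24 and 0.31 in that order. With RMC-6236 in tumours 8 of these 31 rose and 0 fell, with a median of 0.16 (20.3% of all genes called higher, 19.2% lower). SKA3, which helps kinetochores hold microtubules, changed by -1.63 in PSN1 (adjusted p = 1.5e-11), and Spc24, a partner of Nuf2, by 1.03 in tumours with the combination (adjusted p = 3.9e-06). Of 33 further spindle and cytokinesis genes 29 fell and 3 rose in PSN1, 18 fell and 4 rose in SW1990 and 31 of 32 fell in KPC cells. In tumours 16 of 31 of them rose with the combination, and the medians were -0.62, -0.17, -1.34 and 0.32. With RMC-6236 in tumours 8 of these 31 rose and 0 fell, with a median of 0.14. Among 16 condensin and cohesin genes 11 fell and 2 rose in PSN1, 10 fell in SW1990 and 16 in KPC cells, and in tumours with the combination 6 rose and 3 fell, with medians of -0.51, -0.24, -0.76 and 0.16, NCAPD3 changing by -1.39 in PSN1 (adjusted p = 5.0e-12). With RMC-6236 in tumours 1 of the 16 rose and 3 fell, with a median of 0.07.

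Of the 18 genes of the anaphase promoting complex and its partners 9 fell and 4 rose in PSN1, 10 and 4 in SW1990 and 13 and 1 in KPC cells with RMC-6236, with medians of -0.15, -0.19 and -0.28. In tumours with the combination 2 of them fell and 5 rose, with a median of 0.14, the share that rose being near that of all genes. With RMC-6236 in tumours 2 rose and 0 fell, with a median of 0.12 (20.3% of all genes called higher, 19.2% lower). The mitotic ubiquitin-conjugating enzyme of the complex, UBE2C, changed by -0.83 in PSN1 and -1.83 in KPC cells with RMC-6236, and its inhibitor FBXO5 by -1.33 in PSN1. Another list held 16 genes of the MuvB and DREAM complexes, the E2F repressors and the subunits of NF-Y. With RMC-6236, 11 of these fell and 4 rose in PSN1, 9 and 5 in SW1990 and 12 and 1 in KPC cells. The medians were -0.40, -0.27 and -0.40. In tumours with the combination 1 fell and 3 rose, with a median of 0.06, and with RMC-6236 1 fell and 0 rose, with a median of 0.01. The share that rose in SW1990 lay near that of all genes. Among the members was E2F7, changing by -1.35 in PSN1 and -1.10 in SW1990.

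A further list held brakes on the cell cycle, not on mitotic entry alone. With RMC-6236, 5 of its 12 genes tested rose and 6 fell in PSN1. In SW1990 7 rose and 3 fell, and in KPC cells 5 of 13 rose and 5 fell. The medians were -0.06, 0.13 and 0.02. In KPC cells both shares lay near those of all genes, as did the share that rose in PSN1. PKMYT1, a kinase that holds CDK1 inactive, was among those that fell, with changes of -1.89 in PSN1 and -1.35 in KPC cells. CDKN1B, an inhibitor of cyclin-dependent kinases, rose in PSN1 (1.44, adjusted p = 1.4e-13) and Btg2, an antiproliferative gene, in KPC cells (1.37, adjusted p = 2.1e-10). In tumours with the combination 7 of 13 rose and 1 fell, Gadd45a, a stress-induced gene that restrains CDK1, by -1.43 (adjusted p = 2.1e-05). With RMC-6236 in tumours 3 of the 13 rose and 0 fell, with a median of 0.11 (20.3% of all genes called higher, 19.2% lower).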

How the data were processed

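The deposited tables hold FPKM values, and the submitters' processing notes name StringTie 1.3.1c, STAR 2.5.3a and FastQC 0.11.2. For every sample the notes give the human build hg38, and the mouse build behind the KPC tables is not given in the sources used here. Libraries were stranded and made from mRNA, per the labels' protocols, and whether counting used strand is not given, so overlapping antisense genes may share reads. FPKM values of the 4 tables, as deposited by the authors, were set on a log2(FPKM + 1) scale. On it, changes of genes at low levels appear smaller than they are. Genes of at least 1 FPKM in 3 libraries (cells) or 4 (tumours) were tested with limma 3.58.1 (R 4.3.3) with a trended, robust variance, one fit per table over its 4 arms, and p-values were adjusted by Benjamini-Hochberg over all genes of a table and contrast. Differences between tables subtract the estimates of separate fits, with Satterthwaite degrees of freedom. Of 67 labelled samples 52 had value columns, and 0 columns were identical. Members, gene lists and markers were chosen with earlier results of these data known. The genes given by sample are MKI67, CDK1, CCNB1, PLK1, AURKA and FOXM1 in each table and those with the largest changes in a comparison, and others were chosen after their values were seen. The fits were tested on simulated data. Alternatives were another pseudocount (0.1), no filter, libraries rescaled by the median ratio, another variance model, fits on the compared arms only, a replicate block and leaving out each library. Samples with the same replicate number did not deviate together throughout (not every correlation exceeded 0.1), so numbers were not taken to pair samples. This rule cannot exclude pairing of some samples. In SW1990, where both libraries that stood apart were replicate 1, the same-number correlations had a median of -0.004 and reached 0.39. Promoter windows came from RefSeq (GRCm38.p6), and figures were drawn with matplotlib 3.10.9.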

Additional observations from a re-analysis of the deposited data

Results flagged for a closer look

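In tumours 4 of 48 arm groups of 4 samples held a value whose gap to the nearest other sample exceeded the 95% critical value of Dixon's test, where chance gives about 1 in 20 groups. With tazemetostat, Cdc25b was lowest in replicate 3, at 17.3 FPKM, against 22.3 to 22.5 in the others, and Cdk1 was highest in replicate 2, at 10.0 FPKM, against 8.37 to 8.51. With the combination, Nusap1 was lowest in replicate 2, at 10.1 FPKM, against 13.9 to 14.2. In control, Mki67 was highest in replicate 1, at 10.1 FPKM, against 8.31 to 8.59.

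The response differed between KPC tumours and KPC cells, by a test of the difference itself, for 49 genes with RMC-6236, 49 with the combination and 1 with tazemetostat. Of all genes tested there, 26.2% were called higher and 28.7% lower with RMC-6236. The shares were 31.1% and 32.4% with the combination and 10.2% and 6.6% with tazemetostat. With RMC-6236 the difference was 2.29 for Aurkb, 1.99 for Mki67, 1.59 for Cdk1 and 0.66 for Bub3. Between PSN1 and SW1990 the response differed for 44 genes with RMC-6236, 49 with the combination and 14 with tazemetostat. Of all genes tested there, 43.9% were called higher and 16.9% lower with RMC-6236. The shares were 39.1% and 23.8% with the combination and 15.1% and 19% with tazemetostat. With RMC-6236 the difference was -1.19 for CDK1, -0.59 for MKI67 and -0.21 for KIF20A.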

How the results depend on the processing

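Of 1977 values recomputed under alternatives for the 141 called values of named genes, 1853 kept their direction and call, 124 kept the direction but lost the call and 0 reversed. A pseudocount of 0.1 changed none of these calls. Unknown depth limits what can be said of low genes. In the fit with a replicate block, 3 of 141 values lost their call: FOXM1 with tazemetostat in PSN1 (-0.10), PLK1 between the combination and RMC-6236 in SW1990 (-0.12) and Nusap1 with RMC-6236 in tumours (0.44). The block moved no count of calls by over 1.5 times.

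The counts that moved by over 1.5 times were these, and the cause was not tested. With libraries rescaled by their median ratio, 2 genes instead of 4 rose with RMC-6236 in PSN1. In SW1990 rescaling gave 7 falls instead of 3 with tazemetostat, 19 rises instead of 10 with RMC-6236, 14 rises instead of 8 with the combination, and 26 lower instead of 15 and 2 higher instead of 1 between the combination and RMC-6236. In KPC cells it gave 5 falls instead of 9 with tazemetostat, and between PSN1 and SW1990 6 higher instead of 3 with tazemetostat. Without a filter on low values, the combination was lower than RMC-6236 in SW1990 for 8 genes instead of 15, the interaction there was negative for 2 instead of 7, and 4 instead of 7 rose with RMC-6236 in tumours. Fits on the compared arms alone gave 11 rises instead of 7 with tazemetostat in SW1990, and 9 genes instead of 15 lower with the combination than with RMC-6236. Without trend and robust variance the SW1990 interaction was negative for 2 genes.

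Leaving out each library in turn gave 2 to 4 rises with RMC-6236 in PSN1. In SW1990 it gave 6 to 16 rises with RMC-6236 (6 without control replicate 1), 7 to 37 lower and 1 to 2 higher between the combination and RMC-6236, and 2 to 30 negative interactions, the upper ends without both RMC-6236 replicate 1 and control replicate 1. In KPC cells it gave 5 to 8 falls with tazemetostat. In tumours it gave 2 to 25 rises with RMC-6236 (25 without RMC-6236 replicate 1, 2 without RMC-6236 replicate 3 or control replicate 3, 3 without RMC-6236 replicate 4, 4 without control replicate 2 or 4), 0 to 3 higher between the combination and RMC-6236, 23 to 37 rises with the combination, and 1 to 2 higher in tumours than cells with tazemetostat. In the promoters, windows cut to the 250 bases before the start held TTTGAA in 34.1% of genes instead of 70.7%, and TTTGAA or TTTAAA in 51.2% instead of 80.5%.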
